A study of Mus musculus with 15 samples.

Results

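Gene expression in siponimod-treated mice was compared with that in vehicle-treated mice while both were fed cuprizone, with 5 mice a side, 10 of the 15 mice of the study. The genes compared were all 13589 that the authors listed by symbol for this pair of groups, of 19261 genes with a value in all 15 mice. Both groups were wild type and received 0.25% cuprizone by weight for 3 weeks, a copper chelator that kills oligodendrocytes without an autoimmune attack. The siponimod mice were also dosed with the drug at 3.125 mg/kg, and the vehicle mice with its carrier. A further 5 wild-type mice without cuprizone served as controls and are given beside the other groups for their level only. The labels name each mouse separately and the tissue was neocortex mixed with corpus callosum. The sources used here do not state the strain, the sex, the age, how the drug was given or what the vehicle was.

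Siponimod binds the products of S1pr1 and S1pr5, G protein-coupled receptors for the lipid sphingosine 1-phosphate. S1pr1 keeps lymphocytes leaving lymph nodes and is also made in brain by astrocytes, endothelial cells and neurons, while S1pr5 marks mature oligodendrocytes. In cuprizone feeding, oligodendrocytes die, microglia take up myelin debris and switch on a disease-associated programme led by Trem2, and astrocytes raise Gfap. The question put to the tissue is whether these responses differ when the drug is given along with the toxin.

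RNA levels are TPM, the share of a library's transcripts scaled to a fixed total, which keep no record of how deeply a library was sequenced, so the depth of each sample is unknown and counting error could not be set beside the values. The library of vehicle mouse 1 was unlike the other 14: the small neuronal RNA Bc1 took 35.27% of its summed TPM against 6.02% to 10.81% elsewhere, and its median gene had 9.47 TPM against 19.6 to 21.5. Each library was therefore multiplied by a factor that brought its median gene to a common level (2.2 for vehicle mouse 1, 0.969 to 1.06 for the others), and all levels below are such scaled TPM. Scaling did not bring this library into line, since its 24 ribosomal protein genes stayed on average 1.70 log2 above the control mean against 0.06 to 0.13 in vehicle mice 2 to 5. The library of siponimod mouse 1 was ordinary in these 2 measures (6.93% Bc1, median gene 20.8 TPM). This mouse stood apart from its group in microglial and leukocyte genes, as given below. Leaving it out by itself favours lower and separated siponimod values in those same genes. The main results are therefore given for all mice and without both mice numbered 1. Without scaling, the median difference over all genes moved from −0.00 to 0.23 log2, so directions on that scale are read against 0.23. Where 2 differences follow each other below, the first is with all mice and the second without both mice numbered 1.

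With all mice, limma called none of 13585 tested genes at an adjusted p under 0.05 (0.0%), and 562 genes had an unadjusted p under 0.05 (4.14%). The smallest adjusted p was 0.739, that of Aldh1a1. Without both mice numbered 1 limma again called none (0.0%), 1298 genes had an unadjusted p under 0.05 (9.55%), and the smallest adjusted p was 0.193, that of Hspa5. The authors' deposited table has 279 genes at an adjusted p under 0.05, of which 192 were higher with siponimod (1.41% of its genes) and 87 lower (0.64%). The median fold of the calls in the authors' deposited table was 1.14 for genes higher and 1.26 for genes lower with siponimod. All 279 calls of the authors' deposited table had the same direction in the fit without both mice numbered 1, and 170 of the 192 and 75 of the 87 had it with all mice.

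The deposited calls and the limma fits therefore differ in whether any gene passes, and the test behind the authors' deposited table is not given in the sources used here. Over 11587 well-expressed genes, the fold changes in the authors' deposited table lay a median of 0.0164 log2 from those of mean TPM without both mice numbered 1, against 0.0627 with all mice, 0.0255 without vehicle mouse 1 alone and 0.0609 without siponimod mouse 1 alone, each centred on its median. The sources used here do not say which mice entered the authors' test, and the shared directions above are therefore no independent check of the 279 calls. Separation of the groups was counted too, without a test. The 5 siponimod mice were all above the 5 vehicle mice in 109 genes (0.802%) and all below in 44 (0.324%). In the 4 against 4 mice left without mice numbered 1 the counts were 590 (4.34%) and 326 (2.4%). Groups of 4 separate by chance more readily than groups of 5, so the growth of these counts is no measure of an effect.

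**Figure D1:**
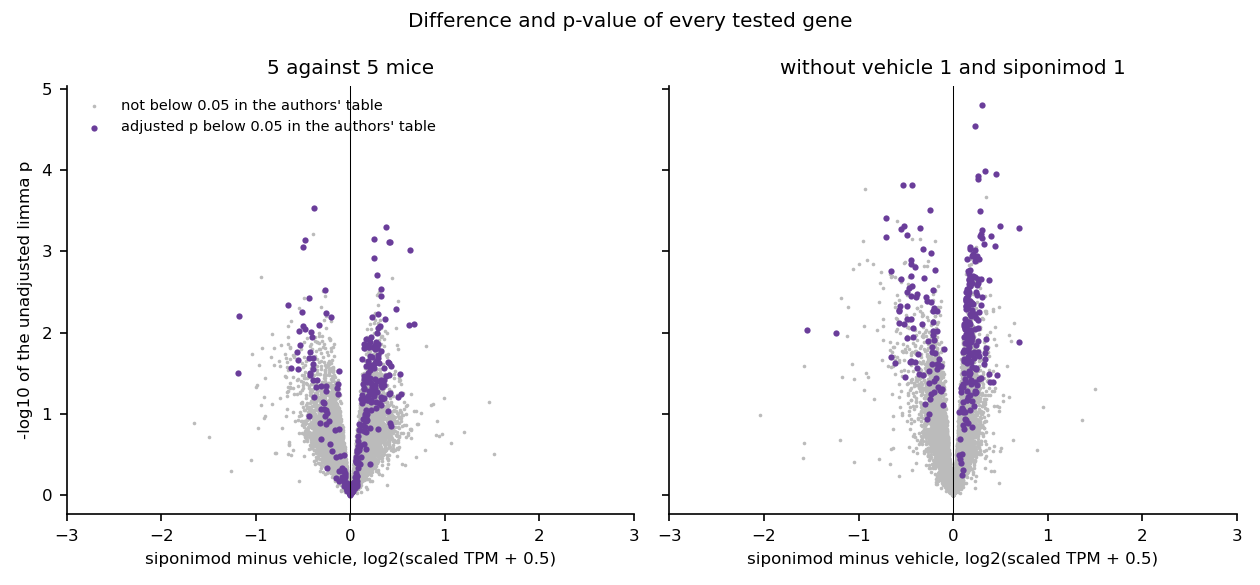
Each point is a tested gene, with the difference of siponimod minus vehicle on the log2 scale on the x axis and the −log10 of the unadjusted limma p on the y axis; the left panel has 5 against 5 mice and the right panel leaves out both mice numbered 1. Purple points are the 279 genes at an adjusted p under 0.05 in the authors' deposited table, which in the right panel all have the sign of their deposited fold change.

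The drug's own receptors were little different between the groups, and none passed in either limma fit or in the authors' deposited table. In the annotation of GRCm38, S1pr5 lies on the minus strand at chr9:21242912-21248443 and S1pr1 on the minus strand at chr3:115710433-115715072. S1pr5 had 6.92, 2.93, 3.88, 5.27 and 2.82 scaled TPM in the vehicle mice and 4.19, 4.55, 4.49, 4.60 and 4.59 in the siponimod mice. All siponimod values lay inside the vehicle range, and all 10 cuprizone-fed mice were below the controls, which ran from 12 to 18.9. The difference in S1pr5 was 0.10 log2 (95% interval −0.31 to 0.52) with all mice and 0.29 (−0.07 to 0.66) without both mice numbered 1. It was −0.01 without vehicle mouse 2 and −0.02 without vehicle mouse 5, so its direction rested on single mice.

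S1pr1 had 111, 105, 102, 96.9 and 96.4 scaled TPM in the vehicle mice and 96.7, 94.3, 86.8, 98.4 and 91.1 in the siponimod mice. The groups overlapped, and the difference was −0.13 log2 (95% interval −0.26 to 0.01; limma adjusted p = 0.739) with all mice and −0.11 (−0.23 to 0.01) without both mice numbered 1. On TPM as deposited, without scaling, the S1pr1 difference was 0.12, a change of sign on a scale where the median over all genes was 0.23. S1pr3, an astrocyte receptor that siponimod spares, ranged from 4.78 to 7.22 in vehicle and from 4.21 to 6.75 in siponimod mice, and S1pr2, which siponimod also spares, from 0.79 to 1.01 and from 0.709 to 1.14. Of 14 tested genes that make, carry or break down sphingosine 1-phosphate, 7 had values above and 7 below vehicle with all mice. Without both mice numbered 1, 5 were above and 9 below. Asah1, the lysosomal acid ceramidase that supplies sphingosine, had a difference of −0.22 log2 with all mice and −0.27 without both mice numbered 1, where the groups did not overlap. Acer2, the ceramidase of the Golgi, differed by −0.41 and −0.49 log2, with overlapping groups, and was lower in the authors' deposited table (adjusted p = 0.0111). Asah2 of the same list was lower there too (−0.26 log2, adjusted p = 0.0146). The deposited table thus called 2 of the 14 lower, where it called 0.64% of all genes lower.

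Genes of activated microglia had lower values with siponimod, and their list had the lowest median of the 37 lists without both mice numbered 1. Of 22 tested genes of the disease-associated microglia list, 22 had values below vehicle with all mice and 21 without both mice numbered 1. The median difference was −0.60 and −0.58 log2, where the median over all tested genes was −0.00 and 0.01, and it was −0.41 without vehicle mouse 1 alone. Without scaling the list's median was −0.35 and that of all genes 0.23. With all mice the erythrocyte list had a median of −0.61, and all 24 ribosomal protein genes were below vehicle. None of the 22 was called by limma in either fit or in the authors' deposited table. Without both mice numbered 1, 6 of the 22 were lower in all 4 siponimod mice than in all 4 vehicle mice (2.4% of all genes were), namely Ctsd, Ctsz, Itgax, Spp1, Trem2 and Tyrobp, and with all mice none was. Siponimod mouse 1 had the highest mean of its group over this list, so leaving it out favours such separation. The mean over the list, relative to the control mean, was 0.96, 1.12, 0.75 and 1.84 log2 in vehicle mice 2 to 5. In siponimod mice 2 to 5 it was 0.78, 0.42, 0.69 and 0.42. These groups overlapped, and vehicle mouse 5 stood far above the other mice in them. Lower levels in such bulk tissue can come from fewer cells of a type or from less RNA per cell, which cannot be told apart here.

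Trem2, the lipid receptor that drives the disease-associated state, had 88.0, 26.9, 32.6, 22.5 and 52.6 scaled TPM in the vehicle mice and 40.9, 20.9, 18.7, 20 and 20.8 in the siponimod mice. The mice numbered 1 were the highest of both groups, and the other 4 siponimod mice were all below every vehicle mouse, though still above the controls at 14.1 to 15.9. The Trem2 difference was −0.75 log2 (SE 0.30; limma adjusted p = 0.739) with all mice and −0.66 (SE 0.18; limma adjusted p = 0.335) without both mice numbered 1, and −0.46 without vehicle mouse 1 alone. Clec7a, a pattern receptor of activated microglia, had 13.6, 8.72, 8.76, 4.60 and 22.2 in the vehicle mice and 12.8, 5.74, 3.60, 4.13 and 2.63 in the siponimod mice. The groups overlapped through siponimod mice 1 and 2, and the Clec7a difference was −0.96 and −1.18 log2 in the 2 fits. Itgax, the integrin of activated microglia, had 2.50, 3.04, 3.35, 2.26 and 8.61 against 5.14, 2.08, 1.32, 1.80 and 1.17 scaled TPM. Siponimod mouse 1 was above 4 of the vehicle mice and the other 4 siponimod mice were below all of them.

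Some leukocyte genes that microglia share are given next, and no list of them was set. Ptprc, Ncf1, Pycard and Lcp1 were named for a small p among genes lower without both mice numbered 1. Mpeg1 and Irf8 were named after their values were seen. Their lower values were thus fixed by the choice and add no separate evidence to the list above. Ptprc, the tyrosine phosphatase common to all leukocytes, had 4.22, 4.05, 3.87, 3.07 and 6.30 scaled TPM in the vehicle mice and 4.93, 2.54, 2.44, 2.12 and 2.38 in the siponimod mice. Siponimod mouse 1 was above all vehicle mice but 1, and the other 4 were below all of them. The difference was −0.53 log2 with all mice (limma adjusted p = 0.739) and −0.71 (95% interval −1.04 to −0.38; limma adjusted p = 0.333) without both mice numbered 1, and in the authors' deposited table it was −0.85 (adjusted p = 0.00122). Ncf1, a cytosolic subunit of the phagocyte oxidase, had 6.44, 5.34, 5.58, 5.73 and 7.31 against 7.32, 4.20, 4.04, 4.27 and 3.41 scaled TPM. Again siponimod mouse 1 was the highest of its group, here just above the highest vehicle mouse, and the rest lay below the vehicle range.

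Pycard, the adaptor of inflammasomes, had 19.9, 3.97, 4.65, 3.85 and 7.04 scaled TPM in the vehicle mice and 6.95, 2.96, 1.48, 2.32 and 2.48 in the siponimod mice. Both mice numbered 1 were far above the rest of their groups, and the Pycard difference was −1.03 log2 with all mice, −0.64 without vehicle mouse 1 alone and −0.93 (SE 0.19; limma adjusted p = 0.253) without both. In the authors' deposited table it was −0.32 (adjusted p = 0.437). Mpeg1, a pore protein of macrophages, differed by −0.73 log2 with all mice and −0.95 without both mice numbered 1, and the actin bundler Lcp1 by −0.34 and −0.60, and the authors' deposited table called neither (adjusted p = 0.0779 and 0.292). Irf8, a transcription factor that microglia require, differed by −0.43 and −0.52 and was lower in the authors' deposited table (adjusted p = 0.0339).

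Markers of microglia in the healthy brain were less far apart. Of 14 tested genes of that list, 11 had values below vehicle with all mice and 12 without both mice numbered 1, with a median of −0.27 and −0.24 log2. P2ry12, Tmem119 and Siglech of this list differed by only −0.02, −0.05 and 0.03 log2 in the authors' deposited table (adjusted p = 0.937, 0.808 and 0.928). Itgam, a complement receptor subunit, had 9.99, 10.4, 11.4, 10 and 14.4 scaled TPM in the vehicle mice and 11.8, 8.56, 7.92, 9.58 and 8.71 in the siponimod mice. Apart from siponimod mouse 1, the siponimod mice were below all vehicle mice and near the controls at 6.91 to 8.68. The authors' deposited table called Itgam (adjusted p = 0.0146) and the microglial lipid receptor Gpr34 (adjusted p = 0.00305) lower with siponimod. Gpr34 differed by −0.50 log2 with all mice and −0.45 without both mice numbered 1, but siponimod mouse 4 and vehicle mouse 4 both had 13.6, so the groups met. Aif1, a calcium-binding protein of microglia, had 51.2 scaled TPM in vehicle mouse 1 against 9.98 to 17.4 in the other vehicle mice and 8.98 to 13.9 in the siponimod mice. Its difference of −0.66 log2 with all mice was −0.30 without both mice numbered 1.

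Complement genes followed the microglial lists, with 8 of 9 tested genes below vehicle in both fits and a median of −0.55 and −0.45 log2, which was −0.30 without vehicle mouse 1 alone. C1qb, a chain of the initiator of the classical pathway, had 284, 101, 109, 81.0 and 165 scaled TPM in the vehicle mice and 128, 83.8, 76.9, 86.6 and 71.1 in the siponimod mice. The groups overlapped, and the difference was −0.60 log2 with all mice and −0.47 (95% interval −0.79 to −0.15; limma adjusted p = 0.396) without both mice numbered 1, and −0.33 without vehicle mouse 1 alone. Apoe, a lipid carrier of astrocytes and activated microglia, differed by only −0.18 and −0.10 log2, and by 0.07 on TPM without scaling. Markers of blood-borne lymphocytes and monocytes were mostly outside the deposited comparison, with 1 of 15 listed genes (Cd4) tested, so their part in these lower leukocyte values was not tested.

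**Figure D2:**
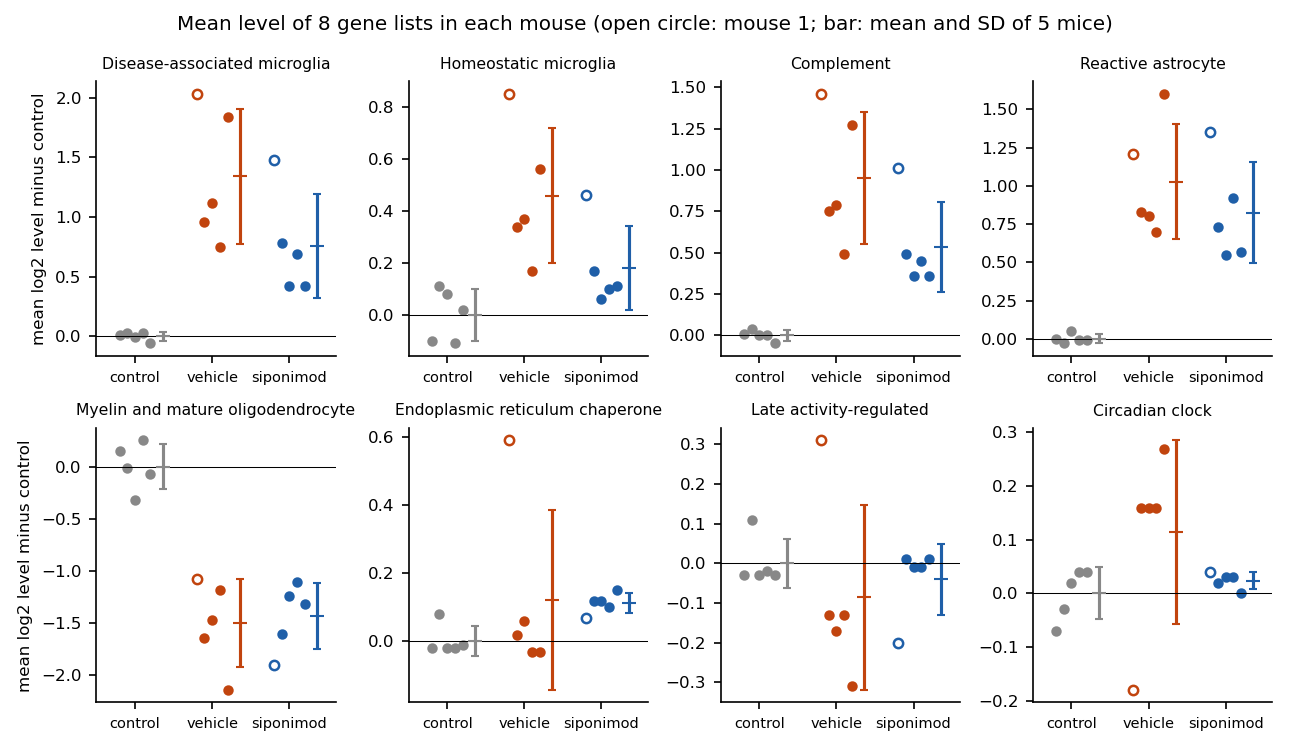
Each panel gives 1 gene list, with the mean over its tested genes of log2(scaled TPM + 0.5) minus the control mean on the y axis and 1 point for each mouse, open for the mice numbered 1 of the cuprizone-fed groups; bars are the mean and SD of 5 mice. In the disease-associated microglia panel vehicle mouse 1 is highest at 2.03 and siponimod mouse 1 stands at 1.48 above the other siponimod mice at 0.42 to 0.78.

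The filament genes of reactive astrocytes were above all controls in every cuprizone-fed mouse and overlapped between the groups. Gfap, the intermediate filament of reactive astrocytes, had 481, 326, 325, 251 and 692 scaled TPM in the vehicle mice and 533, 293, 196, 317 and 222 in the siponimod mice, against 81.5 to 98.5 in the controls. The Gfap difference was −0.41 log2 (SE 0.27; limma adjusted p = 0.739) with all mice and −0.54 (SE 0.23; limma adjusted p = 0.483) without both mice numbered 1. Vim, another such filament, had 205, 72.3, 80.3, 71.6 and 174 against 130, 72.3, 61.6, 88.4 and 72.8 scaled TPM. Its high values in vehicle mice 1 and 5 and in siponimod mouse 1 are those of the microglial genes too. Of 12 tested reactive astrocyte genes, 11 were below vehicle in both fits, with a median of −0.14 and −0.31 log2 that was 0.08 on TPM without scaling, and none was called by limma or in the authors' deposited table.

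Myelin genes were low in both groups. Mbp, a major myelin protein, had 721, 407, 513, 631 and 208 scaled TPM in the vehicle mice and 323, 389, 640, 745 and 580 in the siponimod mice, against 1730 to 2580 in the controls. The groups overlapped over nearly their whole range, with vehicle mouse 5 lowest and siponimod mouse 1 next. The Mbp difference was 0.16 log2 (95% interval −0.48 to 0.80) with all mice and 0.49 (−0.10 to 1.08) without both mice numbered 1, and it was −0.12 without vehicle mouse 5. Mog, a protein of the outer myelin surface, differed by 0.15 log2 with all mice, by 0.53 without both mice numbered 1, and by −0.14 without vehicle mouse 5. Over 27 tested genes of mature oligodendrocytes, 20 had values above vehicle with all mice and 25 without both mice numbered 1, with a median of 0.08 and 0.31 log2. None was called by limma or in the authors' deposited table, and 1 of 27 (Gal3st1) was higher in all 4 siponimod mice than in all 4 vehicle mice, near the 4.34% of all genes.

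Progenitor genes went both ways, with 9 of 12 above vehicle with all mice and 6 of 12 without both mice numbered 1. Olig2, the transcription factor of the whole lineage, had 20.4, 23.0, 22.8, 27.3 and 23.6 scaled TPM in the vehicle mice and 28.2, 28.5, 26.6, 30.2 and 32.0 in the siponimod mice. All siponimod mice were above all vehicle mice except vehicle mouse 4, which was above siponimod mouse 3, and the controls ran from 14.0 to 21.4. The Olig2 difference was 0.31 log2 (SE 0.10; limma adjusted p = 0.739) with all mice, 0.27 (SE 0.10) without both mice numbered 1 and 0.28 in the authors' deposited table (adjusted p = 0.022). Cspg4, the proteoglycan of progenitors and pericytes, had 6.50, 7.39, 6.96, 6.90 and 7.31 against 8.89, 7.93, 8.15, 7.57 and 8.45 scaled TPM. It was the 1 gene of the list with groups of 5 that did not overlap (0.802% of all genes were higher without overlap). Over 12 tested progenitor genes the median difference was 0.08 log2 with all mice and 0.03 without both mice numbered 1.

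Chaperones of the endoplasmic reticulum were higher with siponimod in a narrow range once the mice numbered 1 were left out. This set is shown with sequence because part of it shares a promoter element, the stress response element to which the factors ATF6 and NF-Y bind, written here as CCAAT, 9 bases of any kind and CCACG and searched on both strands. Of 32851 RefSeq promoters of build GRCm38.p6, each from 250 bases before to 50 bases after a transcript start, 39 held it (0.119%). Of 14 list genes with such a promoter 7 did (50%), and Hspa5 and Pdia6 are printed with the match in capitals, both on the plus strand, at chr2:34771840-34772139 and chr12:17266339-17266638. The list holds known targets of this stress response, so the matches describe it and say nothing about the drug.
Hspa5: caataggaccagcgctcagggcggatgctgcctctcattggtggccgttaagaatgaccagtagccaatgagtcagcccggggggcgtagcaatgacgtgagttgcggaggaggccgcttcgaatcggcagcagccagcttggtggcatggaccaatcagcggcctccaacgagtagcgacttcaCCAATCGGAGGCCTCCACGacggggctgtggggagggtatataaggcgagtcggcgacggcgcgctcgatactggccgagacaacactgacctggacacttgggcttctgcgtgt
Pdia6: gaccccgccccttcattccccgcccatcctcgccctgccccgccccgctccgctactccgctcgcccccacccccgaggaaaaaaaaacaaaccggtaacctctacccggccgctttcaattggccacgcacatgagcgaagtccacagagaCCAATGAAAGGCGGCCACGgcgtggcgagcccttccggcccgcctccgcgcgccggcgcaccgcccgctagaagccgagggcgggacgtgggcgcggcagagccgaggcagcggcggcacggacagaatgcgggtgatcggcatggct

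Hspa5, the main chaperone of the compartment, had 284, 174, 174, 165 and 168 scaled TPM in the vehicle mice and 204, 205, 216, 194 and 229 in the siponimod mice. Vehicle mouse 1 was above all others, while vehicle mice 2 to 5 were near the controls at 168 to 182 and below every siponimod mouse. The Hspa5 difference was 0.15 log2 (95% interval −0.11 to 0.41; limma adjusted p = 0.739) with all mice and 0.31 (0.20 to 0.41; limma adjusted p = 0.193) without both mice numbered 1. The authors' deposited table gave 0.28 (adjusted p = 9.17e-06).

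Hyou1, a large chaperone that exchanges the nucleotide of the Hspa5 protein, had 33.7, 48.5, 49.5, 46.1 and 48.7 scaled TPM in the vehicle mice and 49.5, 56.5, 55.8, 57.0 and 57.4 in the siponimod mice. The groups did not overlap, although siponimod mouse 1 and vehicle mouse 3 were equal at the precision printed. The Hyou1 difference was 0.30 log2 (limma adjusted p = 0.739) with all mice and 0.23 (limma adjusted p = 0.193) without both mice numbered 1, and 0.20 in the authors' deposited table (adjusted p = 1.38e-06). Pdia6, a disulphide isomerase, had 118, 69.3, 69.9, 71.6 and 61.7 in the vehicle mice and 72.5, 83.0, 80.7, 80.0 and 83.5 in the siponimod mice. Here too vehicle mouse 1 alone was above the siponimod range, and the difference was 0.07 log2 with all mice and 0.26 (SE 0.05) without both mice numbered 1.

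Pdia3, an isomerase of glycoproteins, and Calr, the lectin chaperone that works with it, changed sign with the mice kept: −0.02 and −0.01 log2 with all mice, 0.14 and 0.15 without both mice numbered 1. The authors' deposited table called both higher (adjusted p = 0.0315 and 0.0322), and 5 of the 16 listed genes in all, where it called 1.41% of all genes higher. Without both mice numbered 1, 13 of 16 tested chaperone genes had values above vehicle, with a median of 0.14 log2, and 8 of 16 were higher in all 4 siponimod mice than in all 4 vehicle mice (4.34% of all genes were). With all mice 6 of 16 were above vehicle, the median was −0.01 and 1 of 16, Hyou1, was separated (0.802% of all genes were). The summed level of the list was 1390 to 1540 scaled TPM in vehicle mice 2 to 5, 2280 in vehicle mouse 1, 1520 to 1640 in the siponimod mice and 1470 to 1600 in the controls, so the siponimod mice were at most slightly above the control range.

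**Figure D3:**
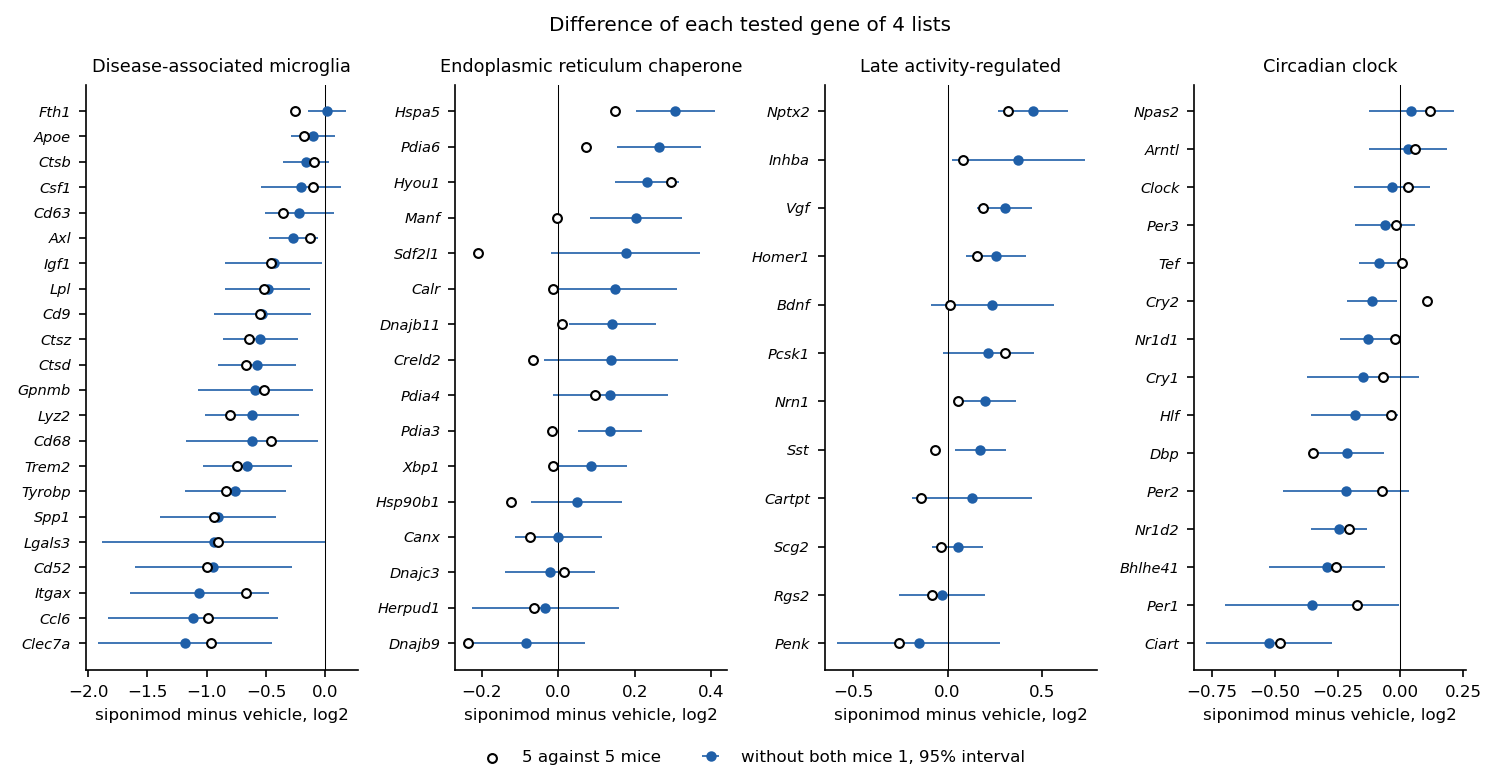
Each row is a tested gene of the list named above the panel, with the difference of siponimod minus vehicle on the log2 scale on the x axis; filled points leave out both mice numbered 1 and carry 95% limma intervals, and open points use 5 against 5 mice. In the chaperone panel Hspa5 is at 0.31 without both mice numbered 1 and 0.15 with all mice, and in the microglia panel 21 of 22 filled points are below 0.

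Late activity genes of neurons mostly had higher values without both mice numbered 1, whereas immediate early genes went both ways. Nptx2, a secreted pentraxin that gathers glutamate receptors at synapses, had 35.5, 35.1, 33.9, 36.8 and 29.5 scaled TPM in the vehicle mice and 30.6, 49.1, 47.1, 48.2 and 41.3 in the siponimod mice. Siponimod mouse 1 was within the vehicle range and the other 4 were above it, from 41.3 to 49.1, with the controls at 35.2 to 45.9. The Nptx2 difference was 0.32 log2 (limma adjusted p = 0.739) with all mice, 0.45 (SE 0.09; limma adjusted p = 0.253) without both mice numbered 1, and 0.45 in the authors' deposited table (adjusted p = 1.66e-06). Vgf, a precursor of neuropeptides, differed by 0.19 and 0.30 log2, and Homer1, a synaptic scaffold, by 0.16 and 0.26, and the authors' deposited table called both higher (adjusted p = 0.0035 and 0.00705).

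Of 12 tested late activity genes, 7 had values above vehicle with all mice and 10 without both mice numbered 1, with a median of 0.03 and 0.21 log2. Immediate early genes, which respond within minutes, had a median of −0.10 and 0.04 over 20 genes, with 6 above vehicle with all mice and 13 without both mice numbered 1, and limma called none of either list. Npas4, a neuronal member of that list, had 14.3, 16, 18.3, 19.1 and 19.8 scaled TPM in the vehicle mice and 9.61, 27.2, 23.5, 19.9 and 27.0 in the siponimod mice, so siponimod mouse 1 was the lowest of the 10 and the others were above all vehicle mice. Egr3 had the same pattern, with a difference of 0.18 and 0.26 log2, and the authors' deposited table called Npas4 (adjusted p = 0.00113) and Egr3 (adjusted p = 0.0237) higher. Such genes also respond to handling in the last minutes of life, and the mouse numbered 1 had the lowest mean over the list in all 3 groups. Relative to the control mean it was −1.04 log2 in siponimod mouse 1 (the others −0.25 to 0.10), −0.45 in vehicle mouse 1 (the others −0.22 to 0.10) and −0.65 in control mouse 1 (the others 0.10 to 0.32). The part of handling in these values was not tested. Nefl, a neurofilament of axons, had 256 to 380 scaled TPM in vehicle and 251 to 301 in siponimod mice, with a difference of −0.05 log2 that was 0.09 without both mice numbered 1.

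Vessel genes had no common direction, with a median over 15 genes of −0.03 and −0.05 log2. Among them 2 transport and barrier genes differed in opposite directions once both mice numbered 1 were left out. Cldn5, the main tight junction protein of brain endothelium, had 147, 40.1, 42.2, 40.5 and 40.3 scaled TPM in the vehicle mice and 51.9, 50, 49.7, 50.9 and 55.2 in the siponimod mice. Vehicle mouse 1 was far above all, the other vehicle mice were below every siponimod mouse, and the controls ran from 48.0 to 66.8. The Cldn5 difference was −0.03 log2 (limma adjusted p = 0.965) with all mice and 0.33 (SE 0.08; limma adjusted p = 0.333) without both mice numbered 1, and 0.32 in the authors' deposited table (adjusted p = 1.87e-06). Slco1a4, an organic anion carrier of the same cells, had 24.8, 47.0, 44.3, 39.2 and 38.0 against 35.5, 29.6, 29.7, 33.6 and 31.3 scaled TPM. Here vehicle mouse 1 was below every siponimod mouse. Without both mice numbered 1 all siponimod mice were below all vehicle mice, with a difference of −0.43 log2 (limma adjusted p = 0.253), and −0.32 in the authors' deposited table (adjusted p = 0.000773).

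Mcam, an adhesion molecule of endothelial cells and pericytes, had 8.15, 9.16, 9.28, 9.81 and 6.44 scaled TPM in the vehicle mice and 10.5, 11, 15.3, 17.7 and 13.7 in the siponimod mice. The groups did not overlap, and the controls at 10.5 to 16.5 lay with the siponimod mice. Its difference was 0.63 log2 (95% interval 0.30 to 0.96; limma adjusted p = 0.739) with all mice, 0.70 without both mice numbered 1 and 0.67 in the authors' deposited table (adjusted p = 0.000171). Thbd, the endothelial receptor of thrombin, differed by 0.33 and 0.40 log2 and was higher in the authors' deposited table (adjusted p = 0.000877).

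Aldh1a1, Stra6 and Cyp26b1, which act on retinoids, each had groups of 5 that did not overlap. Stra6 and Cyp26b1 were named after their values were seen, no list of such genes was set, and Aldh1a2, another enzyme that makes retinoic acid, had overlapping groups (0.26 and 0.29 log2; adjusted p = 0.47 in the authors' deposited table). Aldh1a1, which makes retinoic acid from retinal, had 64.8, 55.9, 52.5, 57.5 and 61.8 scaled TPM in the vehicle mice and 45.5, 46.9, 41.0, 47.3 and 42.6 in the siponimod mice. The siponimod values lay within those of the controls, 40.2 to 52.9, and below all vehicle values. The Aldh1a1 difference was −0.38 log2 (95% interval −0.56 to −0.21; limma adjusted p = 0.739) with all mice and −0.35 without both mice numbered 1, and −0.34 in the authors' deposited table (adjusted p = 0.00019). Stra6, a membrane receptor that takes up retinol, had 3.19, 4.46, 2.6, 4.01 and 3.41 against 5.10, 4.99, 7.36, 7.54 and 4.94 scaled TPM, and Cyp26b1, which breaks down retinoic acid, had 2.38, 5.09, 4.09, 3.62 and 4.11 against 6.25, 5.52, 5.98, 6.80 and 5.70. Both were higher in every siponimod mouse than in any vehicle mouse, by 0.68 and 0.62 log2 with all mice and 0.70 and 0.46 without both mice numbered 1. The authors' deposited table called both (adjusted p = 0.0044 and 0.000511). Stra6 is also a gene of the choroid plexus and meninges, whose list medians were 0.03 and 0.24 log2 with all mice and −0.34 and 0.22 without both mice numbered 1, and their part in these values was not tested.

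Clock genes mostly had lower values in the siponimod mice, with 10 of 15 tested genes below vehicle with all mice and 13 without both mice numbered 1, and a median of −0.04 and −0.15 log2, which was 0.21 on TPM without scaling. Ciart, a repressor that the clock drives, had 26.9, 28.5, 30.0, 28.8 and 42.6 scaled TPM in the vehicle mice and 21.6, 21.9, 20.7, 23.3 and 22.7 in the siponimod mice. The groups did not overlap, and the controls at 19.4 to 26.2 were nearer the siponimod mice. The Ciart difference was −0.48 log2 (95% interval −0.72 to −0.24; limma adjusted p = 0.739) with all mice, −0.52 without both mice numbered 1 and −0.55 in the authors' deposited table (adjusted p = 0.00147). Nr1d2, a nuclear receptor of the clock's second loop, had 62.1, 74.0, 69.8, 68.7 and 77.4 against 60.6, 57.2, 64.4, 60.3 and 62.3 scaled TPM, with vehicle mouse 1 in the siponimod range. Its difference was −0.20 and −0.25 log2, and the authors' deposited table called it lower (adjusted p = 0.000382). Time of day at tissue collection is not given in the sources used here and its part was not tested. The clock acts through the E-box CACGTG, searched on both strands, where it reads alike. It was found in 7.15% of all promoters and in 5 of 14 list genes with a promoter (35.7%). The first share counts promoters and the second genes. The list was chosen as clock genes, so the matches describe it and say nothing about the drug. The Ciart promoter, printed because it holds the E-box 3 times (in capitals), lies on the minus strand at chr3:95882179-95882478 of GRCm38.p6.
Ciart: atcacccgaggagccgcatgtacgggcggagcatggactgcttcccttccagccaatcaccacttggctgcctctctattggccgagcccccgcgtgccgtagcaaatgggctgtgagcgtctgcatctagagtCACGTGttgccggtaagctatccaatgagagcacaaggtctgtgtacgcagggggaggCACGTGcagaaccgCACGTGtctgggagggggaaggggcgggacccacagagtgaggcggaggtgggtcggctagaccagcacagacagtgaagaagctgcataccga

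**Figure D4:**
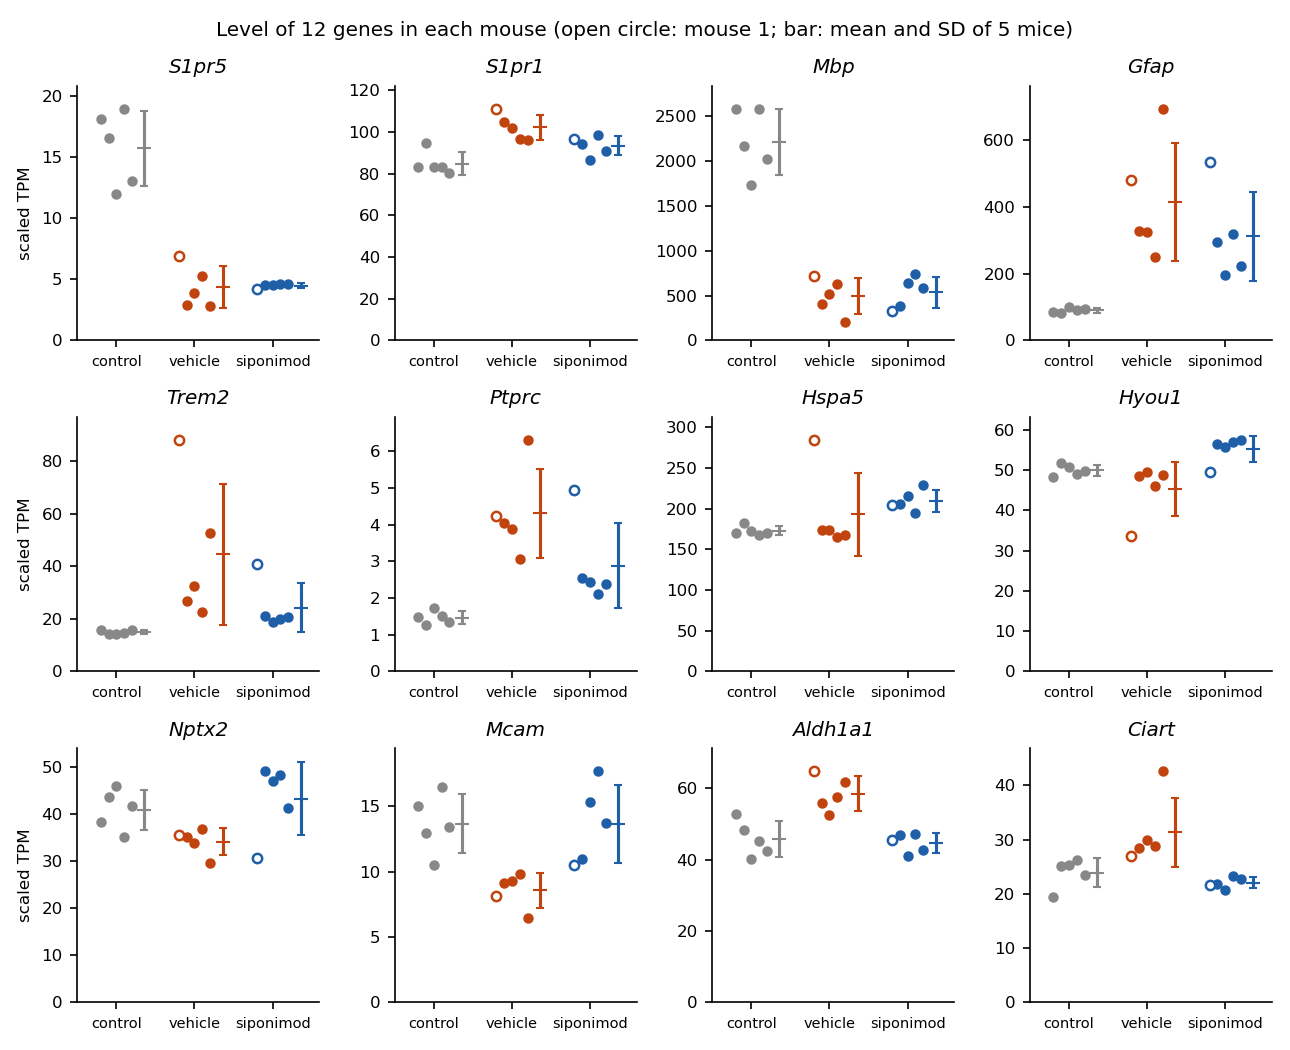
Each panel gives 1 gene, with scaled TPM on a y axis that starts at 0 and 1 point for each mouse of the control, vehicle and siponimod groups, open for the mice numbered 1 of the cuprizone-fed groups; bars are the mean and SD of 5 mice. Mcam, Aldh1a1, Ciart and Hyou1 have no overlap between the vehicle and siponimod mice, whereas in Hspa5 vehicle mouse 1 at 284 is above the siponimod mice at 194 to 229.

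Sgsm1, which regulates small GTPases, had the smallest p of the authors' deposited table (0.37 log2, adjusted p = 9.03e-12). The gene spans chr5:113243220-113310786 of GRCm38 on the minus strand. It had 27.6, 34.5, 34.7, 36.6 and 34.8 scaled TPM in the vehicle mice and 39.7, 46.7, 43.5, 42.4 and 46.1 in the siponimod mice. The groups did not overlap, and the difference was 0.38 log2 (SE 0.09; limma adjusted p = 0.739) with all mice and 0.34 (SE 0.06; limma adjusted p = 0.253) without both mice numbered 1. Cacng8, an auxiliary subunit of glutamate receptors, had 39.6, 66.0, 63.6, 63.6 and 63.2 against 68.4, 76.2, 73.2, 83.7 and 75.9 scaled TPM, also without overlap. Maml3, a coactivator of Notch, differed by 0.42 and 0.45 log2 with separated groups of 5, and the authors' deposited table called it higher (adjusted p = 0.00122).

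Lists of tissue next to the sampled region were compared too. Of 11 tested striatal genes, 9 had values below vehicle with all mice and 11 without both mice numbered 1, with a median of −0.26 and −0.22 log2, close in size to the median of the healthy microglia list, and none had groups that did not overlap. Of 10 tested genes of the thalamus and hippocampus, 4 had values above and 6 below vehicle with all mice and 5 each way without both mice numbered 1, with a median of −0.02 and 0.02 log2. C1ql2, a secreted synaptic protein, and Prox1, a transcription factor of the dentate gyrus, were among the higher values (0.86 and 0.28 log2 with all mice), with overlapping groups. Lef1, a transcription factor of thalamic neurons, differed by −0.43 log2 in both fits. It was the only gene of the list with groups of 5 that did not overlap (0.324% of all genes were lower without overlap). The authors' deposited table called Lef1 lower (adjusted p = 0.045). Prkcd, a kinase of thalamic neurons, had 13, 46.6, 13.1, 38.2 and 66.2 scaled TPM in the vehicle mice and 15.2, 15.6, 8.48, 13.6 and 10.9 in the siponimod mice. The vehicle mice had 2 values near 13 and 3 from 38.2 to 66.2, the controls 3 from 10 to 11.4 and 2 from 37.9 to 43.9, and all siponimod mice were below the higher set. Prkcd was lower in the authors' deposited table (adjusted p = 0.0256). There the differences were −1.94 log2 for Prkcd, −0.91 for Tcf7l2, −0.45 for Lef1, −0.33 for Rora and −0.07 for Slc17a6. The rest of the tested list had 1.24 for C1ql2, 0.24 for Prox1, 0.17 for Wfs1, 0.07 for Calb2 and 0.06 for Zbtb20. The median near 0 of this list therefore covers values well away from 0 in both directions. The summed level of 10 tested genes of that list was 111 to 210 scaled TPM in vehicle and 129 to 155 in siponimod mice, that of 11 striatal genes 884 to 1560 and 992 to 1070, and that of 6 choroid plexus genes 126 to 641 and 136 to 1180, with no gene at 0. The medians of the neuron lists were 0.06 and 0.08 log2 over 12 excitatory and −0.05 and 0.03 over 12 inhibitory genes in the 2 fits. The part of how much of each region was cut in the results above was not tested.

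**Figure D5:**
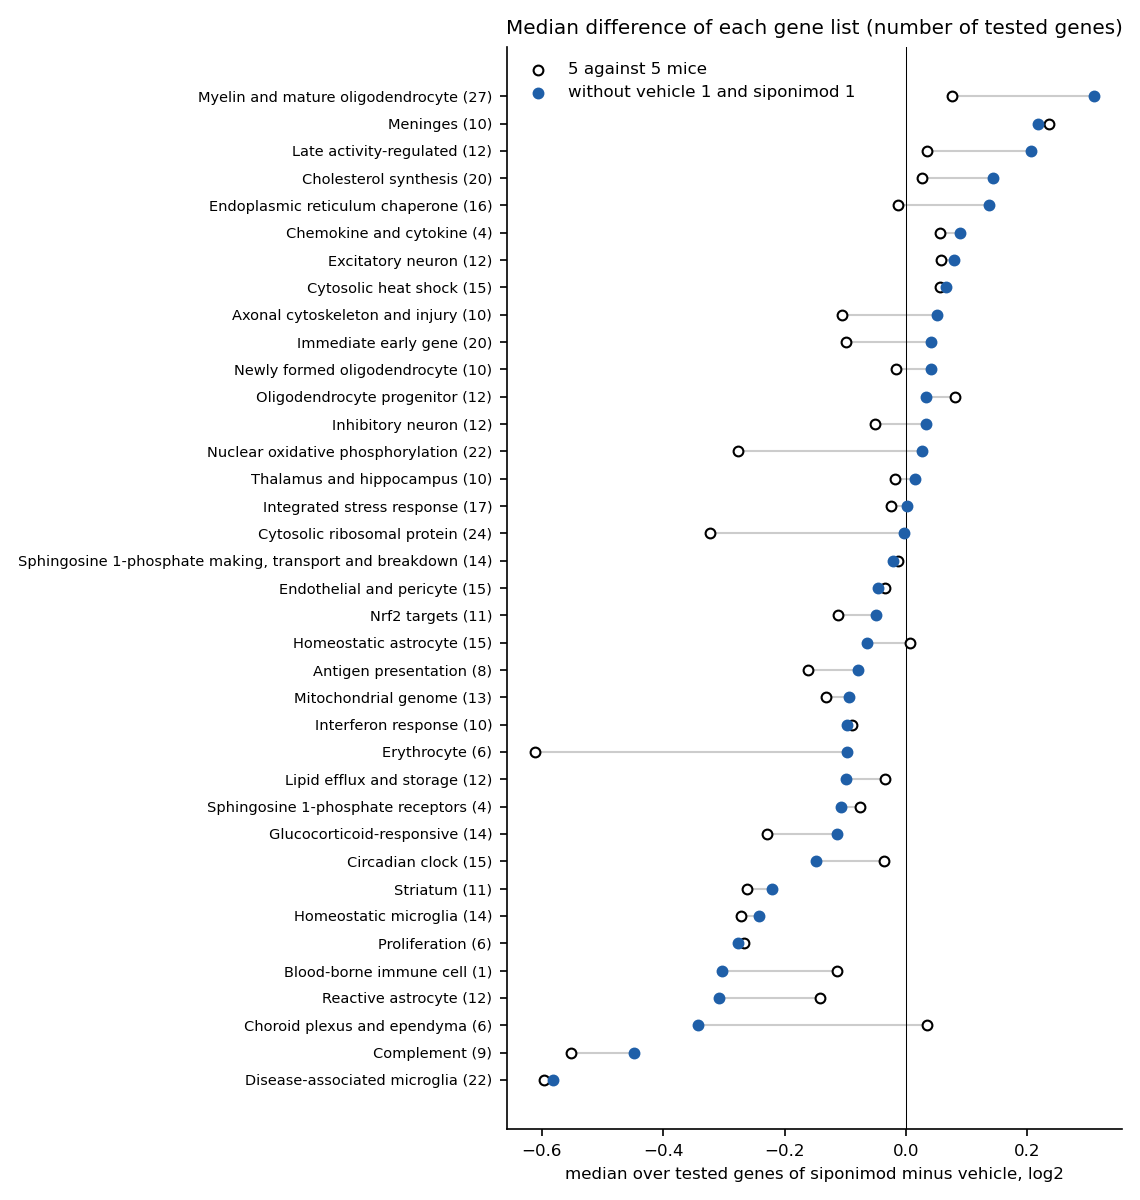
Each row is 1 of the 37 gene lists with its number of tested genes, and the x axis is the median over those genes of siponimod minus vehicle on the log2 scale; open points use 5 against 5 mice and filled points leave out both mice numbered 1. The disease-associated microglia list is lowest without both mice numbered 1 at −0.58 and the myelin list highest at 0.31, and the ribosomal protein list stands at −0.32 with all mice.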

How the data were processed

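Per the labels' protocols, a kit for lipid-rich tissue gave the RNA, from which stranded total RNA libraries were made after ribosomal RNA depletion, whereas the first line of the deposited tables names a 3' mRNA analysis; which of these holds was not settled. The submitters' processing notes name the build mm10 and, without roles, Salmon 1.4.0, STAR 2.6.1d, Trim Galore 0.6.6 and bcl2fastq. The authors deposited TPM for each mouse. The authors also deposited a log2 fold change, its standard error and a test statistic (a score), a p-value with its adjusted value, and a mean signal per gene, and the test behind them is not given in the sources used here. Whether strand was used in quantification is not given either, so overlapping and antisense genes cannot be told apart, and near-identical copies such as C4b, the haemoglobin genes and Hspa1a and Hspa1b are uncertain. In the table compared, 17 rows share a symbol with another row.

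Each library was scaled to a common median gene. Genes above 0.5 TPM in at least 5 mice (13585 of 13589) were fitted with limma 3.58.1 in R 4.3.3 on log2(scaled TPM + 0.5), with control, vehicle and siponimod mice in 1 model, a mean trend in the empirical Bayes step, and Benjamini-Hochberg adjustment at 0.05 over all tested genes. Fold changes on this scale understate those of low genes. Residual degrees of freedom were 12 with all mice and 10 without both mice numbered 1. Figures were drawn with matplotlib 3.10.9 and tables made in Python 3.11.15 with scipy 1.17.1, numpy 2.4.6 and pandas 2.3.3. The fits were tested on data with known answers before use.

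The members and the 37 gene lists were chosen with earlier results of these data known. Genes were named by a rule: the 12 highest and 12 lowest by p in each of the 2 fits, the 2 smallest p of each list, and a fixed set that held the S1P receptors, Mbp, Mog, Gfap, Aif1, Trem2 and Nefl. Clec7a, Mpeg1, Irf8, Itgam, C1qb, Apoe, Vim, Cspg4, Pdia3, Calr, Homer1, Npas4, Thbd, Stra6, Cyp26b1, C1ql2 and Prox1 were named after their values were seen. So were P2ry12, Tmem119, Siglech, Asah2, Rora, Slc17a6, Wfs1, Calb2 and Zbtb20. Some genes that the rule names are not reported here. Alternatives were TPM without scaling, Bc1 removed, array weights, other pseudocounts, no filter, a filter at the median level, the vehicle and siponimod mice alone, a replicate block, each mouse left out in turn and the authors' deposited table. Further ones, added after seeing the data, left out both mice numbered 1 under other settings or tested all 17714 genes that passed the filter in the 15 mice.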

Additional observations from a re-analysis of the deposited data

Results flagged for a closer look

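Among 108 groups of 5 values examined, 24 single values lay farther from the rest of their group than Dixon's 95% limit allows. Of these, 11 were of vehicle mouse 1 and 11 of siponimod mouse 1. The limit gives about 1 in 20 groups by chance, but the count cannot be set against that rate. Values of the same mouse are not independent. Several of these genes were also named for a small p without both mice numbered 1, or after their values were seen.

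Vehicle mouse 1 stood apart in the share of Bc1 (35.27% of TPM) and in its median gene (9.47 TPM). In scaled TPM it was high in Aif1 (51.2), Pycard (19.9), Hspa5 (284), Pdia6 (118), Pdia3 (171) and Cldn5 (147), and low in Hyou1 (33.7), Sgsm1 (27.6) and Cacng8 (39.6).

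Siponimod mouse 1 was high, in scaled TPM, in the microglial and leukocyte genes Trem2 (40.9), Ptprc (4.93), Irf8 (8.38), Mpeg1 (38.1), Pycard (6.95), Ncf1 (7.32), Lcp1 (12.5), C1qb (128) and Itgax (5.14). It was low in S1pr5 (4.19), where the other siponimod mice were within 4.49 to 4.60, and in Hyou1 (49.5).

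Vehicle mouse 5 was high in Ciart (42.6) and Itgax (8.61).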

How the results depend on the processing

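Depth is unknown, and the 95% interval of a gene's difference reached a median of 0.262 log2 to either side with all mice and 0.17 without both mice numbered 1. Differences of that size and somewhat above it were mostly not detectable at the adjusted threshold. limma called 0 genes in all 32 fits, with 562 genes at an unadjusted p under 0.05 with all mice, 674 without scaling, 504 with Bc1 removed, 968 without vehicle mouse 1, 1302 with array weights (smallest adjusted p 0.0523) and 1298 without both mice numbered 1. The authors' deposited table had 279 calls, 192 higher and 87 lower, where the cause of the difference was not tested.

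The replicate block also gave 0 calls, with 642 genes at an unadjusted p under 0.05, and 1360 with both mice numbered 1 left out. Vehicle and siponimod mice that share a number correlated at 0.048, 0.062, 0.082, −0.029 and −0.147 in their deviations from the group means. No mouse of either group correlated best with its own number in the other, so the numbers were not taken to pair the mice.

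Of 52 genes followed, 15 changed sign under at least 1 alternative and 30 passed in the authors' deposited table. Without scaling, which by construction moved the median of all genes by 0.23 log2, the differences were 0.12 for S1pr1, 0.09 for S1pr2, 0.13 for S1pr3, 0.07 for Apoe, 0.23 for Pdia3, 0.24 for Calr, 0.22 for Cldn5, 0.00104 for Slco1a4, 0.05 for Nr1d2, 0.20 for Nefl and 0.03 for Asah1. With Bc1 removed, which moved the median by 0.12, they were 0.02 for S1pr2, 0.02 for S1pr3, 0.11 for Pdia3, 0.11 for Calr, 0.09 for Cldn5 and 0.08 for Nefl. Without both mice numbered 1, also with the replicate block, the 2 groups alone, all genes or no trend, they were 0.14 for Pdia3, 0.15 for Calr, 0.33 for Cldn5 and 0.09 for Nefl. The same genes in that order had 0.12, 0.10, 0.32 and 0.03 with array weights, 0.17, 0.18, 0.36 and 0.12 on TPM as deposited without both mice numbered 1, and 0.14, 0.20, 0.32 and 0.08 in the authors' deposited table. The cause of these sign changes was not tested. With 1 mouse left out at a time the ranges that crossed 0 were −0.11 to 0.12 for Calr, −0.13 to 0.33 for Cldn5, −0.12 to 0.33 for Mbp, −0.14 to 0.35 for Mog, −0.10 to 0.04 for Nefl, −0.07 to 0.13 for Pdia3, −0.00189 to 0.23 for Pdia6 and −0.02 to 0.27 for S1pr5.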

Other observations

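The tested genes of dividing cells had lower values with siponimod. Top2a, which untangles DNA in dividing cells, had 3.34, 1.55, 2.41, 1.37 and 4.49 scaled TPM in the vehicle mice, 1.76, 1.39, 0.753, 0.615 and 0.852 in the siponimod mice and 0.564 to 0.900 in the controls. The groups overlapped through siponimod mice 1 and 2, and the Top2a difference was −0.95 log2 (limma adjusted p = 0.739) with all mice and −0.99 (limma adjusted p = 0.333) without both mice numbered 1. All 6 tested genes of the 15 on the proliferation list were below vehicle in both fits, with a median of −0.27 and −0.28 log2. None of the 6 was called by limma or in the authors' deposited table, and the other listed genes were not tested.

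Genes of cholesterol synthesis had values above vehicle in 12 of 20 with all mice and 17 of 20 without both mice numbered 1, with a median of 0.03 and 0.14 log2. The integrated stress response list had a median of −0.03 and 0.00 over 17 genes, glucocorticoid-responsive genes −0.23 and −0.11 over 14, interferon genes −0.09 and −0.10 over 10, and antigen presentation genes −0.16 and −0.08 over 8. Nuclear genes of oxidative phosphorylation had −0.28 with all mice and 0.03 without both mice numbered 1, cytosolic ribosomal protein genes −0.32 and −0.00, and erythrocyte genes −0.61 and −0.10, and vehicle mouse 1 stood 1.34 log2 above the control mean in the first of these lists.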
